A study of Homo sapiens with 6 samples.

Results

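The keratin gene clusters were examined as the deposited peaks whose midpoint fell in either of 2 windows on hg19. The chromosome 12 window (chr12:52550000-53360000, 810 kb) holds KRT80, KRT7, KRT5, KRT8 and KRT18. The chromosome 17 window (chr17:38800000-39800000, 1000 kb) holds KRT15, KRT19, KRT14 and KRT17. Of 1510 KLF5 peaks from Calu-3, 3 lay in the windows, as did 10 of 3262 KLF5 peaks from 16HBE14o- and 31 of 69386 CEBPB peaks from Calu-3. The windows thus held 44 of the 74158 peaks of the series.

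Keratins form the intermediate filaments of epithelial cells, which assemble from pairs of a type I and a type II protein. Type II genes are clustered on chromosome 12 and type I genes on chromosome 17, with KRT18 as the type I gene that sits in the chromosome 12 cluster beside its partner KRT8. Simple keratins (KRT8, KRT18, KRT7 and KRT19) are typical of single-layered and luminal epithelium, and in the airway of columnar cells. Basal keratins (KRT5 with its partner KRT14, KRT15, and KRT17, which is also induced in wounded epithelium) mark the basal cells that act as airway progenitors. KRT80 is a type II keratin of epithelium that belongs to neither class.

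KLF5 is a zinc finger transcription factor of the Krüppel-like family, whose members recognise GC-rich and CACCC sequences, and CEBPB is a basic leucine zipper factor. Binding was profiled by chromatin immunoprecipitation and sequencing in untreated cells of Calu-3, derived from a lung adenocarcinoma, and 16HBE14o-, an immortalised bronchial epithelial line, both kept in the same serum-containing medium. There were 6 samples in 3 groups of 2: Calu-3 KLF5, 16HBE14o- KLF5 and Calu-3 CEBPB. In Calu-3, KLF5 replicate 1 was precipitated with a rabbit antibody, whereas replicate 2 and both 16HBE14o- replicates shared a commercial antibody, so line and antibody were partly confounded. Each group had 1 list, made from both of its samples, and no value below has a replicate error. Sequencing depth is unknown, and the lists hold no expression values against which simple or basal identity could be checked.

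Where the data bear on simple and basal keratins, 2 promoters could be read, those of KRT8 and KRT5 (RefSeq, GRCh38.p14, minus strand of chromosome 12). They belong to the only 2 of the 9 member genes with a promoter sequence available, so the pair was not chosen by KLF5 peaks. The KRT8 locus carried KLF5 in both lines, and the KRT5 locus, like the other basal loci, held no peak midpoint within its bounds. At the density of each whole KLF5 list, the basal loci together would hold 0.0567 (Calu-3) and 0.123 (16HBE14o-) peaks. Nothing is therefore read from their lack of KLF5 peaks. Each run gives the 250 bases before the annotated gene start, with capitals for matches on either strand to CCNCNCCC (the KLF and SP core), CACCC, TTGCNNAA (a C/EBP site) or TGANTCA (an AP-1 site).
KRT8: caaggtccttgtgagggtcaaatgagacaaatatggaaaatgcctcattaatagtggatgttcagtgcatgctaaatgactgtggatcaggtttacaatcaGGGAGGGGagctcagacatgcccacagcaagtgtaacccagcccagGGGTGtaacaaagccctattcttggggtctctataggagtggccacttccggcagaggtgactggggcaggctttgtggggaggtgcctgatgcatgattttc
KRT5: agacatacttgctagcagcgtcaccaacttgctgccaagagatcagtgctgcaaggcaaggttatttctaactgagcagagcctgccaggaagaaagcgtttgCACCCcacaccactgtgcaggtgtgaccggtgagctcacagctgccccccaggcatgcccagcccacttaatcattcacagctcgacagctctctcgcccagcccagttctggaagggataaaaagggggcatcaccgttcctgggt
The run shown for KRT8 had 1 match to CCNCNCCC and 1 to CACCC, both read on the strand opposite to the printed run. That for KRT5 had 1 match to CACCC in the printed run. Other starts of these genes were not read, and the lists do not show which starts the cells use. Neither had a match to TTGCNNAA or TGANTCA. Matches to the first motif occurred in 53.4% of 35116 RefSeq promoters over the same 250 bases, and matches to the second in 54.7%, so both were common in promoters. TTGCNNAA occurred in 9.05% and TGANTCA in 6.57%. These sequences are not peak sequences, because coordinates of the lists were not carried over to this build.

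Peaks were assigned to 8 loci, KRT8 and KRT18 sharing a locus because they are neighbours. Measured from the lower end of the chromosome 12 window, KRT80 spanned 0 to 50 kb, KRT7 50 to 110 kb, KRT5 340 to 380 kb and KRT8/KRT18 730 to 810 kb. In the chromosome 17 window KRT15 spanned 860 to 877.5 kb, KRT19 877.5 to 900 kb, KRT14 930 to 955 kb and KRT17 970 to 1000 kb. These bounds are rounded and come from general knowledge of hg19. Their order matched that of the genes in RefSeq GRCh38.p14.

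With peaks placed by midpoint within these rounded bounds, simple keratin loci carried peaks in every list, and basal keratin loci carried none in any list. Calu-3 KLF5 had 3 peaks at simple and 0 at basal loci, 16HBE14o- KLF5 had 7 and 0, and Calu-3 CEBPB had 5 and 0. KRT80 also had 0 peaks in each list. At the density of each whole list, the basal loci would hold 0.0567 Calu-3 KLF5, 0.123 16HBE14o- KLF5 and 2.61 CEBPB peaks, and the simple loci 0.0819, 0.177 and 3.77 peaks in that order. A count of 0 KLF5 peaks is therefore what a stretch as short as the basal loci would show at these densities, and nothing about the basal keratins is read from it. Simple loci covered 162.5 kb and basal loci 112.5 kb, so the numbers correspond to 1.85 (Calu-3 KLF5), 4.31 (16HBE14o- KLF5) and 3.08 (CEBPB) peaks per 100 kb of simple locus. In the 1485 kb of the windows outside the loci, Calu-3 KLF5 had 0 peaks, 16HBE14o- KLF5 had 3 (0.202 per 100 kb) and CEBPB had 26 (1.75 per 100 kb). Simple loci thus held 3 of 3 Calu-3 KLF5, 7 of 10 16HBE14o- KLF5 and 5 of 31 CEBPB peaks of the windows. That comparison of places was made after the values were seen and has no test.

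No basal locus held a peak midpoint in any list, so a test of the split between lists could show no difference. The simple share was 100% in each, with a difference of 0 points for Calu-3 KLF5 against 16HBE14o- KLF5 (Newcombe 95% interval -56.1 to 35.4; adjusted p = 1 by Fisher's exact test over 2 comparisons). The difference was also 0 points for Calu-3 KLF5 against CEBPB (-56.1 to 43.4; adjusted p = 1 by the same exact test). The empty basal class fixed these outcomes, so no likeness of the lists is read from them. With 3 Calu-3 KLF5 peaks the intervals are wide, and peaks are not replicates.

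The absence of basal peaks rests in part on where the bounds were set. The 16HBE14o- KLF5 peak at chr12:52888396-52888739 had its midpoint 1.43 kb below the KRT5 locus, on the side of its neighbour KRT6A. A CEBPB peak at chr17:39729811-39730055 had its midpoint 0.0675 kb below the KRT14 locus. The upper end of that CEBPB peak reached into the locus, so placement by midpoint alone left it out. With each locus widened by 5 kb, the simple and basal counts were 3 and 0 for Calu-3 KLF5, 7 and 1 for 16HBE14o- KLF5, and 7 and 1 for CEBPB. In that count a peak within both widened loci went to the locus whose original bounds were nearer, which kept the KLF5 site next to KRT15 with KRT19. With such peaks given to the basal locus instead, a count added after the values were seen, simple and basal loci held 2 and 1 Calu-3 KLF5, 6 and 2 16HBE14o- KLF5, and 7 and 1 CEBPB peaks.

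**Figure D1:**
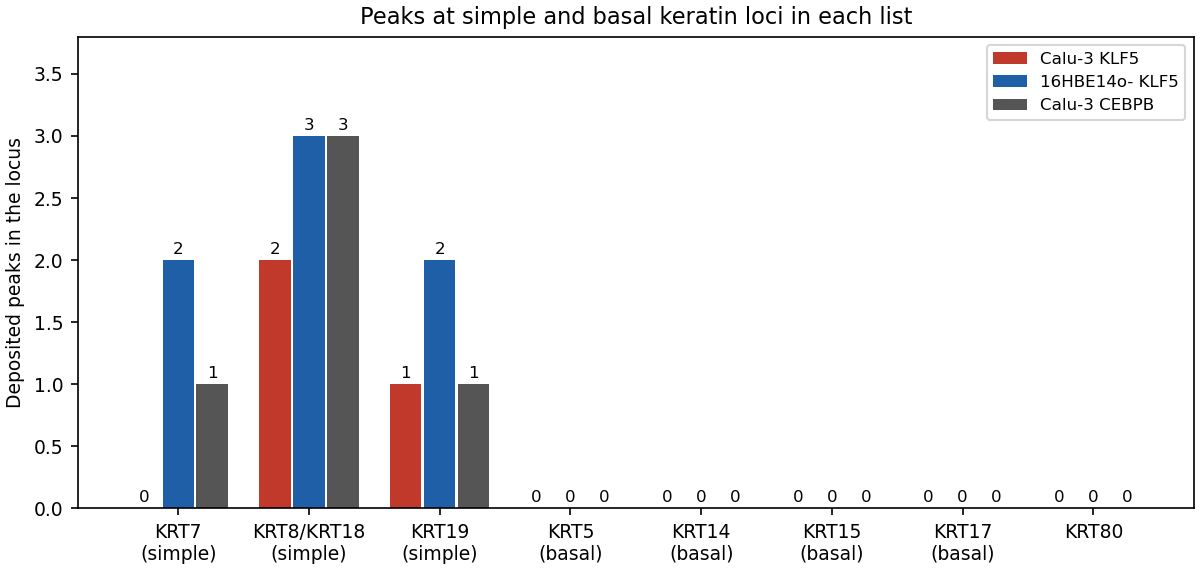
Number of deposited peaks (vertical axis) at each keratin locus (horizontal axis) in the 3 lists, with 1 list per group and so no error bars. Simple loci hold 1 to 3 peaks per list, except KRT7 with 0 in Calu-3 KLF5, and basal loci and KRT80 hold 0. Peaks were placed by midpoint, and the split depends on the rounded locus bounds.

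KRT8 and KRT18, the type II and type I partners of simple epithelium, had the site at which the 3 lists met. Calu-3 KLF5 had its stronger peak at chr12:53321001-53321280, with a signal of 37.2 that ranked 303 of 1510 (percentile 80, counted so that a list's highest peak has 100). The 16HBE14o- KLF5 peak at chr12:53321020-53321363 had a signal of 45.9 and ranked 403 of 3262 (percentile 87.7). Both were thus among the stronger peaks of their lists, and their summits were 51 bp apart. Signals are the authors' own values and are not comparable between lists.

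A second Calu-3 entry at chr12:53321201-53321480 overlapped the first, with summits 200 bp apart. It had a signal of 6.94, which ranked 1508 of 1510, and a q-value of 0.882, yet it carried the highest deposited score of 1000. The Calu-3 list had 15 peaks in its lowest 1% by signal, of which 14 overlapped another entry of the list. Of the 15, 6 had that score, and each of these 6 overlapped another entry. Entries that overlapped another made up 4.77% of the list (72 of 1510 peaks) and 15.8% of the 16HBE14o- list, of which none lay in the windows. The highest score was carried by all 3 Calu-3 KLF5 peaks of the windows (46.0% of the whole list) and by 6 of the 10 16HBE14o- peaks (33.2%). The 3 Calu-3 KLF5 peaks in the windows therefore marked 2 places.

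CEBPB was listed at the same site with a weak peak. It lay at chr12:53321204-53321384 with a signal of 2.75 (percentile 19.7) and a q-value of 0.351. Its summit was 150 bp from the stronger and 50 bp from the weaker Calu-3 KLF5 summit, and 99 bp from that of 16HBE14o-. Another weak CEBPB peak followed at chr12:53321813-53322006, with a signal of 2.71 and a q-value of 0.413.

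**Figure D2:**
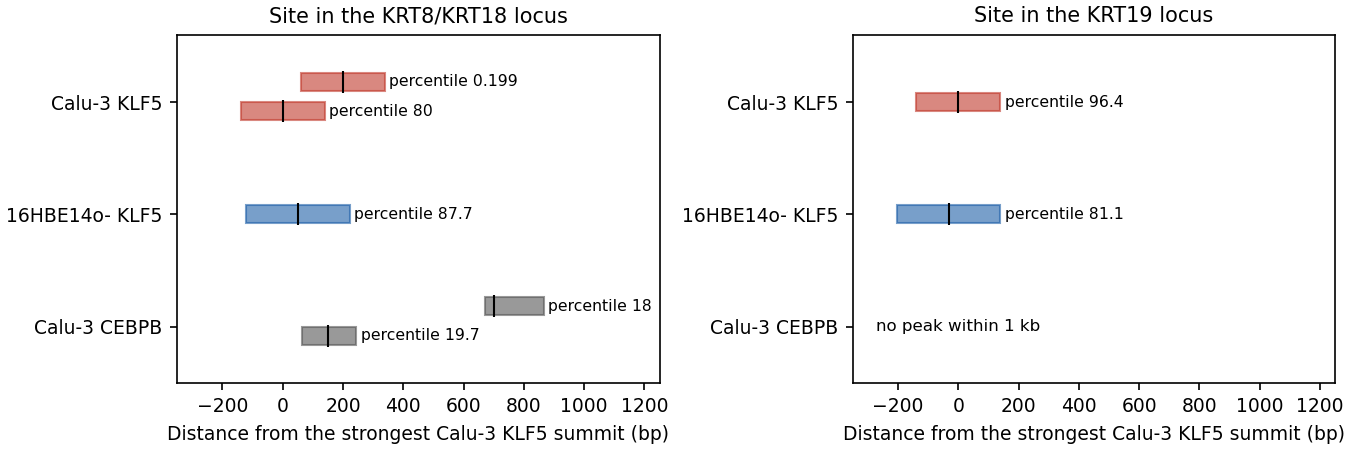
Peaks of the 3 lists around the strongest Calu-3 KLF5 summit in the KRT8/KRT18 locus (left) and in the KRT19 locus (right), with distance in bp on the horizontal axis. Bars span the peaks, ticks mark summits, and labels give the signal percentile within the list. KLF5 peaks of both lines overlap at each site, and CEBPB overlaps at the KRT8/KRT18 site with percentile 19.7.

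The KRT8/KRT18 locus held other peaks seen in a single list. In 16HBE14o-, KLF5 peaks lay at chr12:53300198-53300541 (signal 30.3, percentile 50.5) and at chr12:53339758-53340101 (signal 41.3, percentile 82.6). Neither was overlapped by Calu-3 KLF5, the nearest Calu-3 summits being 20771 and 18589 bp away. The strongest CEBPB peak of the locus, at chr12:53302005-53302189, had a signal of 4.33 (percentile 83.4) and a q-value of 2.61e-04. Its summit was 1743 bp from the nearest 16HBE14o- KLF5 summit and 19028 bp from the nearest Calu-3 summit. Just below the locus, 16HBE14o- KLF5 had a peak at chr12:53267994-53268337 (percentile 59.3) and CEBPB at chr12:53278348-53278503 (percentile 87.9).

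As bounded here, the locus of KRT19, a simple type I keratin, held the KLF5 peak of highest percentile in either window. The site lay next to the bound with KRT15, so its assignment to KRT19 rests on that bound. In Calu-3 it lay at chr17:39678139-39678418, with a signal of 58.8 that ranked 56 of 1510 (percentile 96.4). The 16HBE14o- peak at chr17:39678075-39678418 had a signal of 40.3 and ranked 618 of 3262 (percentile 81.1). Summits were 32 bp apart, and both peaks ended at the same base. CEBPB was not listed there, its nearest summit being 11158 bp from the Calu-3 summit.

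This shared site stood close to a basal keratin as well. Its midpoint was 0.778 kb (Calu-3) and 0.746 kb (16HBE14o-) above the bound that separates the loci of KRT15 and KRT19, which have no other protein-coding gene between them in RefSeq. Its class as simple follows from that bound. Without KRT15 and KRT19, the simple and basal counts were 2 and 0 for Calu-3 KLF5, 5 and 0 for 16HBE14o- KLF5 and 4 and 0 for CEBPB.

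Further into the KRT19 locus, 16HBE14o- KLF5 had a peak at chr17:39692412-39692755 (signal 31.8, percentile 58.1) with no Calu-3 counterpart. CEBPB had a strong peak between the KLF5 sites, at chr17:39689319-39689508, with a signal of 6.85 (percentile 93.6) and a q-value of 2.31e-14. Its summit was 3147 bp from the nearest 16HBE14o- and 11158 bp from the nearest Calu-3 KLF5 summit. It was the CEBPB peak of highest percentile at any of the member genes.

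KRT7, a simple type II keratin, had KLF5 peaks in 16HBE14o- and none in Calu-3. They lay at chr12:52611080-52611423 (signal 28.3, percentile 41.3) and chr12:52625676-52626019 (signal 30.2, percentile 50.1), of moderate rank. The nearest Calu-3 KLF5 summits were 68687 and 83283 bp away. Calu-3 CEBPB had 1 peak between them, at chr12:52619524-52619678, with a signal of 3.44 (percentile 59.6) and a q-value of 0.0511. At unknown depth, a peak missing from a list does not show that the factor was absent.

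The basal keratins KRT5, KRT14, KRT15 and KRT17 were described by the peaks nearest to them. For KRT5, after the 16HBE14o- peak at its edge (signal 39.0, percentile 78.6), the nearest midpoints outside the locus were 347 kb away for Calu-3 KLF5 and 40.1 kb for CEBPB. For KRT14 the distances were 51.7 kb for Calu-3 KLF5 and 37.4 kb for 16HBE14o- KLF5. The CEBPB peak at its edge was weak, at percentile 19.8. For KRT15 the nearest peaks of both KLF5 lists were those shared with KRT19, and the nearest CEBPB midpoint was 11.9 kb away.

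KRT17 lies at the upper end of its window, and both KLF5 lists had a peak just beyond it. The Calu-3 peak at chr17:39807817-39808096 (percentile 81.6) was 7.96 kb outside the window and overlapped the 16HBE14o- peak at chr17:39807791-39808134 (percentile 74.0). These peaks are not counted among the 44. KRT80, at the lower end of the chromosome 12 window, was likewise flanked from outside. There, the nearest peaks were at chr12:52542425-52542704 for Calu-3 KLF5 (7.44 kb outside, percentile 56.4) and chr12:52541039-52541382 for 16HBE14o- KLF5 (8.79 kb outside, percentile 97.0).

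Between the KRT7 and KRT5 loci, a stretch that in RefSeq holds 10 other protein-coding keratins from KRT86 to KRT6A, KLF5 was listed in 16HBE14o- alone. The peak at chr12:52888396-52888739 (percentile 78.6) lay at the KRT5 edge of the stretch. Another, at chr12:52674713-52675056, had a signal of 43.3 (percentile 85.3). A strong CEBPB peak of Calu-3 at chr12:52674085-52674346 (signal 8.57, percentile 96.0) had its summit 690 bp away and did not overlap it. That CEBPB peak was the highest of the chromosome 12 window. The next were at chr12:52849741-52849964 (percentile 95.3), chr12:52665025-52665251 (92.7) and chr12:52838859-52839051 (92.3), with the peak below the KRT8/KRT18 locus as the fifth. From KRT5 to KRT8, across 12 other protein-coding keratins, CEBPB had 3 peaks below the KRT8/KRT18 locus and 16HBE14o- KLF5 had 1.

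**Figure D3:**
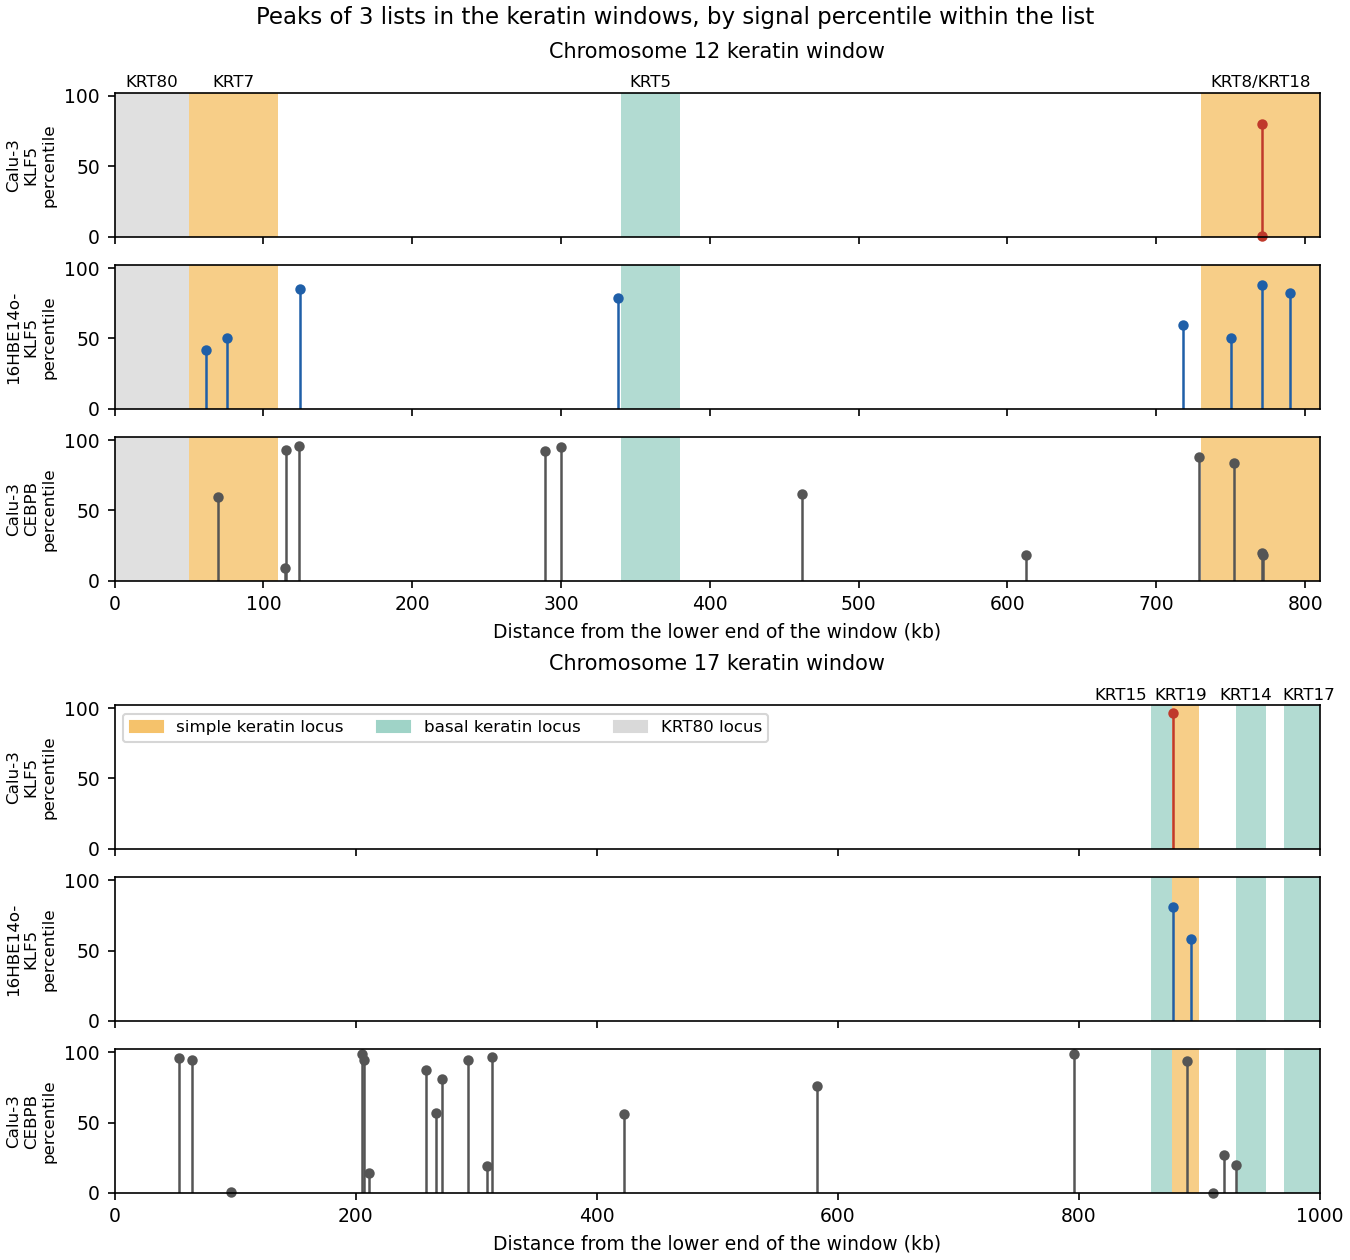
Signal percentile within the list (vertical axes) of every peak in the windows, by distance from the lower end of the window in kb (horizontal axes), with 1 panel per list and window. Shading marks simple, basal and KRT80 loci. Calu-3 KLF5 peaks stand in the KRT8/KRT18 and KRT19 loci, and CEBPB peaks of high percentile stand mostly outside the shaded loci. Most of the window length is also unshaded, 1485 kb of 1.81 Mb.

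KLF5 sites in the keratin windows were compared between lines by overlap of at least 1 bp. All 3 Calu-3 peaks overlapped a 16HBE14o- peak, where 23.6% of the whole Calu-3 list did so. In the other direction 2 of 10 overlapped, against 11.3% of the whole 16HBE14o- list. The lists differ in length and the 3 Calu-3 peaks mark 2 places, so these counts are a description without a test. The 8 peaks found in 16HBE14o- but not in Calu-3 had percentiles of 41.3 to 85.3, and 5 of them were at simple loci.

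CEBPB overlapped 2 of the 3 Calu-3 KLF5 peaks (43.7% of the whole list) and 1 of the 10 16HBE14o- KLF5 peaks (22.4% of the whole list). Both counts came from the single weak CEBPB peak at KRT8/KRT18. Of the 31 CEBPB peaks, 1 overlapped Calu-3 KLF5 and 1 overlapped 16HBE14o- KLF5, against 0.938% and 1.03% of the whole CEBPB list. The q-value was 0.05 or less for 2 of the 3 Calu-3 KLF5 peaks (86.6% of that list), for each of the 10 16HBE14o- peaks (78.9%) and for 22 of the 31 CEBPB peaks (46.3%).

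The windows took a small share of each list. It was 0.199% for Calu-3 (exact 95% interval 0.0410 to 0.580) and 0.307% for 16HBE14o- (0.147 to 0.563), a difference of -0.108 points (-0.396 to 0.301) that gave an adjusted p of 0.766 by Fisher's exact test over 2 comparisons. The share of the CEBPB list was 0.0447% (0.0304 to 0.0634). Calu-3 KLF5 exceeded it by 0.154 points (0.0216 to 0.538), with an unadjusted p of 0.0354 and an adjusted p of 0.0707 by Fisher's exact test, which did not pass the threshold of 0.05. Counted once as overlapping entries, Calu-3 KLF5 had 2 places and the excess was 0.0910 points (Fisher's exact test, adjusted p = 0.300). Intervals cover counting error alone.

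By density, the windows held 1.66 Calu-3 KLF5 peaks per Mb, against 0.504 per Mb over the span covered by all lists. That density counts 3 Calu-3 entries, which marked 2 places because 2 of them overlap. For 16HBE14o- KLF5 the values were 5.52 and 1.09 per Mb, and for CEBPB 17.1 and 23.2 per Mb. In both KLF5 lists the chromosome 12 window was the denser. For 16HBE14o- KLF5 it had 9.88 peaks per Mb against 0.936 per Mb on that chromosome. The chromosome 17 window had 2 peaks per Mb against 2.11 on its chromosome. For Calu-3 KLF5, overlapping entries included, the values were 2.47 against 0.434 per Mb for chromosome 12 and 1 against 0.678 per Mb for chromosome 17.

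CEBPB peaks of the chromosome 17 window stood out in how signal and significance were related. The window had 19 CEBPB peaks, of which 12 lay in its lower part, 53.3 to 313 kb from the lower end and far from the member genes. The window was divided at 400 kb after the values were seen, and the contrast of its parts has no test. At chr17:38853095-38853406 a signal of 8.76 came with a −log10 p of 86.9, against a median of 21.1 among 626 CEBPB peaks whose signal was within 5%. By contrast, the peak of similar signal (8.57) on chromosome 12 had a −log10 p of 21.5. The strongest peak of either window, at chr17:39005161-39005464, had a signal of 14.6 (percentile 99.0) and a −log10 p of 118. The −log10 p of these 12 peaks ranked at percentiles 87.0 to 100 among peaks of like signal, with a median of 99.8.

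The 7 CEBPB peaks in the rest of the window, KRT19 included, ranked at percentiles 21.3 to 98.6 (median 74.4). The highest of these was the peak next above the division, 423 kb from the lower end. The 12 peaks of the chromosome 12 window ranked at 4.06 to 69.6 (median 19.8). In the lower part, the peak at chr17:39010544-39010792 was at percentile 14.3 by signal and 85.6 by −log10 p. Ranks of CEBPB peaks in that stretch thus depended on the deposited column used. At the member genes the ranks were closer. The KRT19 peak stood at percentile 93.6 by signal and 94.4 by −log10 p, and the KRT7 peak at 59.6 and 53.6. By signal, the other leading peaks of the window were at chr17:39595658-39595945 (percentile 98.7), chr17:39113091-39113395 (96.4), chr17:38853095-38853406 (96.2) and chr17:39006619-39006852 (94.8).

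**Figure D4:**
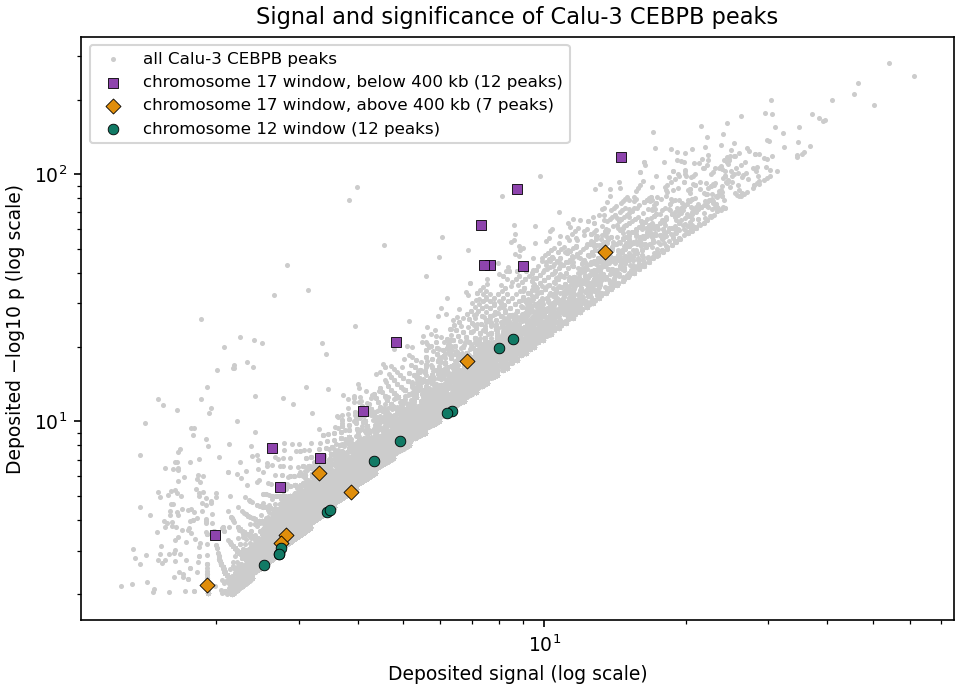
Deposited signal (horizontal, log scale) and −log10 p (vertical, log scale) of all Calu-3 CEBPB peaks (grey) and of those in the keratin windows, split on chromosome 17 at 400 kb from the lower end of the window. The 12 peaks of the lower part of the chromosome 17 window lie at percentiles 87.0 to 100 of −log10 p among peaks of like signal. The split was chosen after the values were seen.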

How the data were processed

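The authors' peak lists were analysed as deposited, 1 per group and on hg19 per the file headers. The series' design text says that replicates were combined in each file. Per the file headers the KLF5 lists hold optimal peaks of the irreproducible discovery rate procedure and the CEBPB list holds such peaks without that term. The aligner, the peak caller, the control and the filters are not given in the sources used here. Signal and score are the authors' values per peak, deposited without a stated normalization, and the deposited −log10 p and q-values follow the column order of the format named in the file headers. Nearly all KLF5 peaks had a fixed width with a central summit, 280 bp in Calu-3 and 344 bp in 16HBE14o-.

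Peaks were placed by midpoint, and starts are given from base 1. Percentiles are ranks of signal within a list. Shares have exact (Clopper-Pearson) and differences Newcombe 95% intervals, and were tested by Fisher's exact test (two-sided) with Benjamini-Hochberg adjustment within each pair of comparisons. Peaks are not replicates, and whether the samples came from separate cultures is not stated, so each p compares lists. The functions were tested on simulated data. The named peaks are every KLF5 peak in the windows, and of the CEBPB peaks those at the loci and the 5 of highest signal per window. The CEBPB peaks at chr17:39729811-39730055 and chr17:39010544-39010792, and the peaks just outside the windows, were named after their values were seen. Members, loci and lists were chosen with earlier results of these data known. Alternatives varied list size, signal, q-value and score thresholds, merging, placement, locus bounds and overlap rule. Python 3.11.15, pandas 2.3.3, scipy 1.17.1 and statsmodels 0.14.6 were used.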

Additional observations from a re-analysis of the deposited data

How the results depend on the processing

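The comparison of list shares between the KLF5 lists and both comparisons of simple with basal loci stayed above the threshold of 0.05 under each alternative that gave a value. Where no list had a basal peak, the comparisons of simple with basal loci could not have passed it. The share difference between Calu-3 KLF5 and CEBPB passed it with KLF5 peaks of the highest score (0.387 points, Fisher's exact test, adjusted p = 0.00925), and under no other alternative, its range being 0.0662 to 0.387 points. That setting cut the Calu-3 KLF5 list to 695 peaks but kept all 69386 CEBPB peaks. The 3 KLF5 peaks it counted include 2 overlapping entries. With a q-value of 0.05 or less in both lists, the difference was 0.0844 points (Fisher's exact test, adjusted p = 0.359). With 1510 peaks in each list it was 0.0662 points. The overlap of Calu-3 KLF5 with CEBPB, 2 peaks, was 1 when 50% of the shorter peak had to be covered, 1 with summits within 100 bp, and 0 with lists of 1510 peaks or a q-value of 0.05 or less. That of 16HBE14o- KLF5 with CEBPB, 1 peak, was 0 under the last 2 settings. The CEBPB peak concerned ranked 55684 of 69386 by signal and had a q-value of 0.351. With lists of 1510 peaks CEBPB had 0 peaks at simple or basal loci, so its class comparison gave no value. No paired analysis was possible because the replicates of a group were combined in its list, and for the same reason no replicate could be left out. Peaks under the authors' thresholds are not in the lists.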
